A study of Mus musculus with 2 samples.

Results

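The Hox cluster genes and their TALE cofactors were taken as every array identifier made of Hoxa, Hoxb, Hoxc or Hoxd, or of Meis or Pbx, followed by a number alone. This gave 46 of 30774 gene identifiers. Of these, 39 were Hox genes, with 11 in the Hoxa cluster, 10 in Hoxb, 9 in Hoxc and 9 in Hoxd. The other 7 were Meis and Pbx genes. The table places the Hoxa cluster in chromosome band 6qB3, Hoxb in 11qD, Hoxc in 15qF3 and Hoxd in 2qC3. One further identifier with a similar name, Hoxa11s, is the antisense RNA of Hoxa11 and was kept apart.

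Both groups were mouse embryonic stem cells (mESCs) of strain B6, labelled as derived from the inner cell mass and kept in medium with serum. One group received LIF, the cytokine that activates Stat3. The other received LIF plus CHIR99021 (CHIR), a GSK3 inhibitor that activates Wnt/β-catenin signaling, for 12 h. Total RNA of each was measured on 1 Illumina beadchip array, so nothing below has a replicate, and no difference between the conditions could be tested. The study used the array to look for genes that CHIR raises, and the dose of CHIR on the array is not given in the sources used here.

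Hox genes encode homeodomain transcription factors that give cells their position along the head-to-tail axis of the embryo. They lie in clusters in the order in which they are switched on, with low paralog numbers anterior and early and high numbers posterior and late. In mESCs the clusters are known to be held silent by Polycomb proteins, and Wnt signals and Cdx proteins are known to act upstream of them when the trunk forms. Meis and Pbx belong to the TALE class of homeodomain proteins, which bind DNA together with Hox proteins and also have roles without them.

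The beads report RNA abundance as brightness, the signal intensity, given here in arbitrary units after background subtraction, so that signals near 0 are background. A detection p-value compares each signal with negative control beads of the same array, and a gene was called detected with a p-value under 0.01. It compares nothing between the conditions. For identifiers measured by 1 probe, the lowest detected signal was 51.9 in LIF and 47.1 with CHIR. For identifiers measured by several probes the p-value did not follow the signal. In LIF, 1165 of them had a signal above 100 without being detected, against 0 of the 1-probe identifiers. Levels were compared between arrays for the same gene and not between genes, since probes differ in brightness.

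The CHIR label was checked with Axin2. Axin2, a feedback inhibitor of Wnt signaling, had a signal of 314.1 in LIF and 1178 with CHIR, 1.91 higher on the log2 scale. Sp5, a zinc-finger transcription factor, was not detected in LIF and was at least 3.96 higher, and Trh, which encodes thyrotropin-releasing hormone, was 1.20 higher. The study picked Sp5 and Trh as genes raised by CHIR on these arrays and also by Stat3 stimulation in earlier published data. It found Sp5 raised by CHIR in qRT-PCR as well. The rise of both on these arrays follows from that choice, so only Axin2 checks the label. Of 8 mESC markers, 7 were detected on both arrays, among them Dppa5a with signals of 57706 and 55732 and Pou5f1 with 12346 and 11309. Fgf4, a growth factor of mESCs, was past the limit of 1.5-fold, with signals of 712.7 and 430.1, -0.73 on the log2 scale. Klf4 (965.7 and 1444) and Nanog (1660 and 2429) were higher with CHIR by 0.58 and 0.55, short of that limit. The marker that was not detected was Sox2, measured by several probes, with signals of 441.2 and 400.2. Of 8 markers of feeder fibroblasts, only Twist1 was detected, with signals of 116.9 and 103.8, and of the collagen genes Col1a1 and Col3a1 lay below 0 on both arrays, whereas Col1a2 had signals of 24.7 and 16.6. Thy1, measured by several probes, had signals of 222.3 and 225.3 without being detected and made up most of the list's sum. The summed signal of these 8 was 327.0 in LIF and 312.9 with CHIR. Of 6 primitive endoderm markers only Sox7 was detected (45.9 and 59.0), with summed signals of 131.1 and 117.2. Of 6 neural markers only Nes was detected, and only in LIF plus CHIR (27.7 and 44.8), with sums of 95.2 and 158.4. The part of these cell types in the results was not tested.

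Hox RNA was almost entirely at background under both conditions. In LIF, 0 of 39 Hox genes were detected, where 29.3% of all identifiers were. In LIF plus CHIR, 2 of 39 were detected, Hoxc4 and Hoxd11, against 29.8% of all identifiers. Hox signals ran from -12.0 to 44.1 in LIF, with a median of 3.10, and from -16.1 to 63.5 in LIF plus CHIR, with a median of -0.35. Below 0 lay 18 of the 39 in LIF and 21 with CHIR. Every Hox gene in LIF lay below the lowest detected 1-probe signal, so that low amounts of Hox RNA, or RNA in a small share of the cells, would not be seen at this sensitivity. That limit does not apply to 13 of the 39, which are measured by several probes and whose p-value need not follow the signal. Signals of these 13 ran from -9.07 to 44.1 in LIF and from -12.9 to 34.3 with CHIR. Their lack of detection is thus less certain. Whether each probe reports its RNA was not tested.

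**Figure D1:**
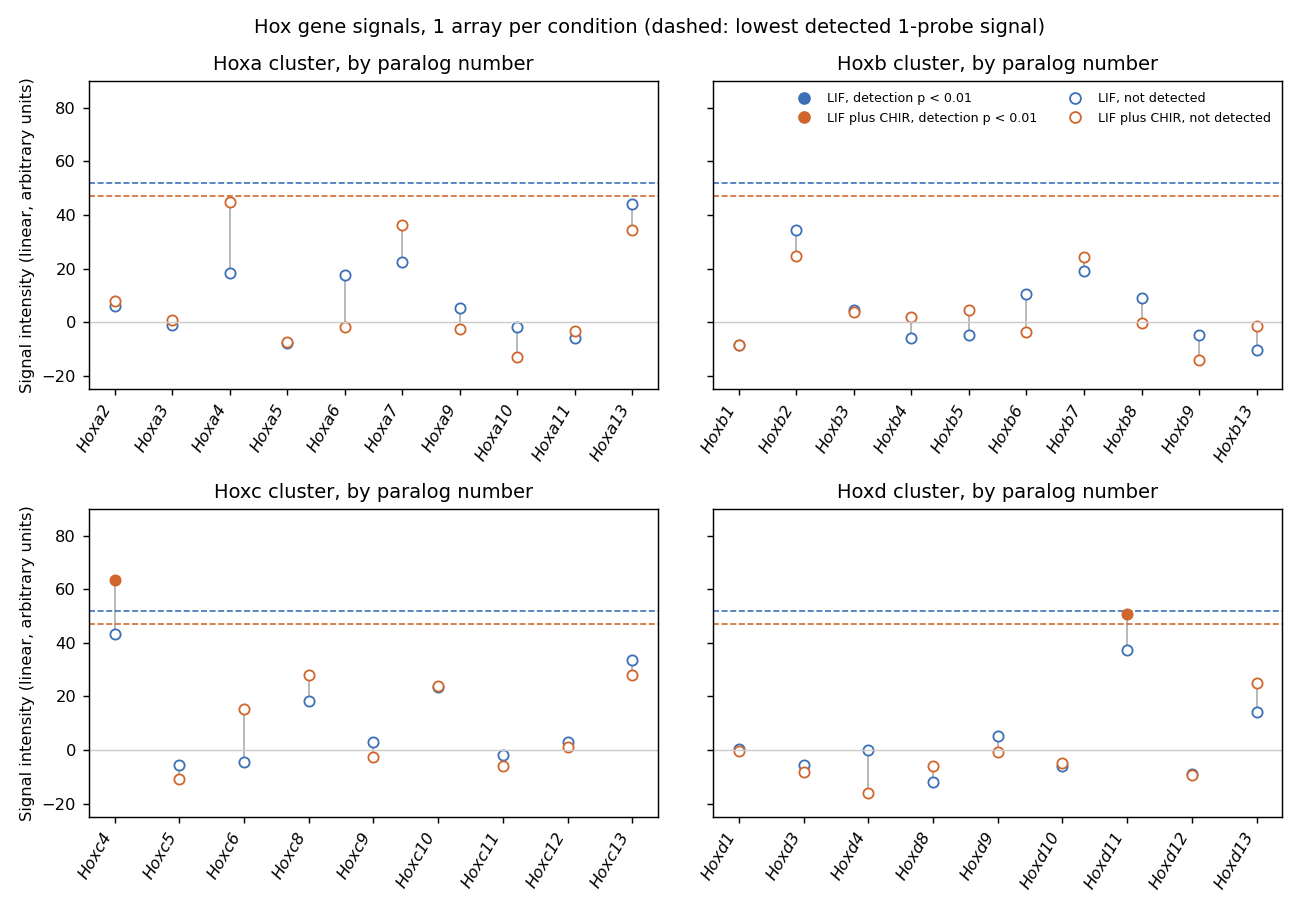
Signal intensity (linear, arbitrary units) of Hox genes in LIF (blue) and LIF plus CHIR (orange), 1 array each, by cluster and paralog number. Filled points are detected and open points are not, and dashed lines mark the lowest detected 1-probe signals of 51.9 and 47.1. Only Hoxc4 and Hoxd11 in LIF plus CHIR are filled.

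Hoxc4 was grouped as central by its paralog number alone, although it has the lowest number of the Hoxc genes on the array. It had a signal of 43.2 in LIF (detection p-value 0.022) and 63.5 in LIF plus CHIR (detection p-value 0.0032). Set against the lowest detected signal in LIF it was at least 1.22-fold higher with CHIR, which is 0.29 on the log2 scale, and the plain ratio of its signals was 1.47. Hoxd11, a posterior gene that patterns the forearm and the trunk, had a signal of 37.3 in LIF (detection p-value 0.037) and 50.8 in LIF plus CHIR (detection p-value 0.0085). The signal with CHIR did not exceed the lowest detected signal of the LIF array, so no fold is given, and the plain ratio was 1.36. Both genes were detected only in LIF plus CHIR, so their higher signal there follows from how they were picked out. Both passed the looser p-value of under 0.05 in LIF as well.

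The other 37 Hox genes were detected on neither array. Among the anterior genes, which pattern the hindbrain and the neck, Hoxb2 had signals of 34.3 in LIF and 24.8 with CHIR. Hoxa2, Hoxa3, Hoxb1, Hoxb3, Hoxd1 and Hoxd3 lay between -8.58 and 7.99 on both arrays. Hoxb1, known as an early responder to retinoic acid, had signals of -8.47 in LIF and -8.58 in LIF plus CHIR. In all, 0 of 8 anterior genes were detected on either array.

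Among the 15 central genes, with paralog numbers from 4 to 8, Hoxc4 was the one detected. Hoxa4 had a signal of 18.4 in LIF (detection p-value 0.126) and 44.8 in LIF plus CHIR (detection p-value 0.0139), close to detection with CHIR and the widest rise in signal of any Hox gene, at 26.4. Hoxa7 had signals of 22.5 and 36.3, Hoxc6 of -4.51 and 15.3, and Hoxc8 of 18.4 and 28.0. In the other direction Hoxa6 went from 17.8 to -1.81, the widest drop in signal of any Hox gene, and Hoxd4 from -0.13 to -16.1. Hoxa5, Hoxb4, Hoxb5, Hoxb6, Hoxb7, Hoxb8, Hoxc5 and Hoxd8 lay between -12.0 and 24.5 on both arrays. Higher signals with CHIR were found beside lower ones within the Hoxa cluster and within paralog group 4.

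Among the 16 posterior genes, which pattern the lumbar to tail region and the limbs, Hoxd11 was the one detected. Hoxa13 had a signal of 44.1 in LIF (detection p-value 0.0155) and 34.3 in LIF plus CHIR (detection p-value 0.109). Hoxc13 had signals of 33.5 and 27.9, and Hoxd13 of 14.2 and 24.9. The remaining 12 were Hoxa9, Hoxa10, Hoxa11, Hoxb9, Hoxb13, Hoxc9, Hoxc10, Hoxc11, Hoxc12, Hoxd9, Hoxd10 and Hoxd12, with signals between -14.0 and 23.9. All 4 genes of paralog group 9 (Hoxa9, Hoxb9, Hoxc9 and Hoxd9) had lower signals with CHIR, with differences from -9.08 to -5.58, and every one of them was undetected on both arrays.

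**Figure D2:**
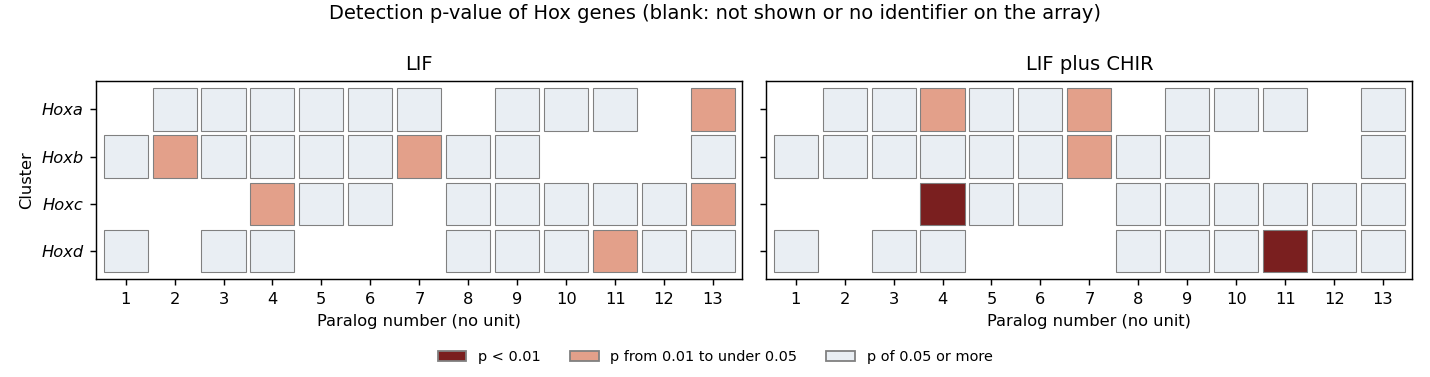
Detection p-value of Hox genes in LIF (left) and LIF plus CHIR (right), with clusters as rows and paralog number as columns; blank places are not shown or have no identifier on the array. The dark squares, detected at p under 0.01, number 0 in LIF and 2 with CHIR (Hoxc4 and Hoxd11). The pale red squares are spread over all 4 clusters in LIF and lie only in Hoxa and Hoxb with CHIR.

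With a looser detection p-value of under 0.05, 6 Hox genes passed in LIF (Hoxa13, Hoxb2, Hoxb7, Hoxc4, Hoxc13 and Hoxd11) and 5 in LIF plus CHIR (Hoxa4, Hoxa7, Hoxb7, Hoxc4 and Hoxd11). Hoxb7, Hoxc4 and Hoxd11 were the 3 that passed on both. On at least 1 array 8 of 39 passed, or 20.5%, against 38.0% of all identifiers. The 8 came from all 4 clusters, with 3 in Hoxa, 2 in Hoxb, 2 in Hoxc and 1 in Hoxd. They formed no run of neighbours within a cluster.

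The change in signal had no common direction among Hox genes. The signal was higher with CHIR in 19 of 39, or 48.7%, against 49.9% of all identifiers. By cluster it was higher in 7 of 11 Hoxa genes, 4 of 10 Hoxb genes, 4 of 9 Hoxc genes and 4 of 9 Hoxd genes. By position it was higher in 3 of 8 anterior, 10 of 15 central and 6 of 16 posterior genes. The difference, LIF plus CHIR minus LIF, ran from -19.6 to 26.4 with a median of -0.11. These counts are descriptions, since most of the values are background.

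The size of these differences was set beside that of other background signals. Among 15569 identifiers with 1 probe that were detected on neither array, the central 90% of the differences lay between -13.1 and 12.7. Of the 24 Hox genes with 1 probe that were likewise detected on neither array, 3 lay above this range (Hoxa4, Hoxa7 and Hoxc6) and 3 below it (Hoxa6, Hoxb6 and Hoxd4). These 6 have paralog numbers of 4, 6 or 7, all in the central group. Central genes, Hoxc4 among them, make up 14 of the 26 Hox genes with 1 probe, a set that also holds Hoxd11. A tie to position was not tested. The SD of the differences was 11.3 in the 24 Hox genes and 8.05 in the 15569 identifiers. Hoxc4 and Hoxd11 also lay above the range, but they passed detection through the array where they are high and are not counted among the 24. Across the 24 Hox genes the signals of the arrays had a Pearson r of 0.74 and a Spearman rho of 0.66, and across the 15569 identifiers 0.85 and 0.80. The same probes were used on both arrays, so that a fixed background of each probe enters both values.

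**Figure D3:**
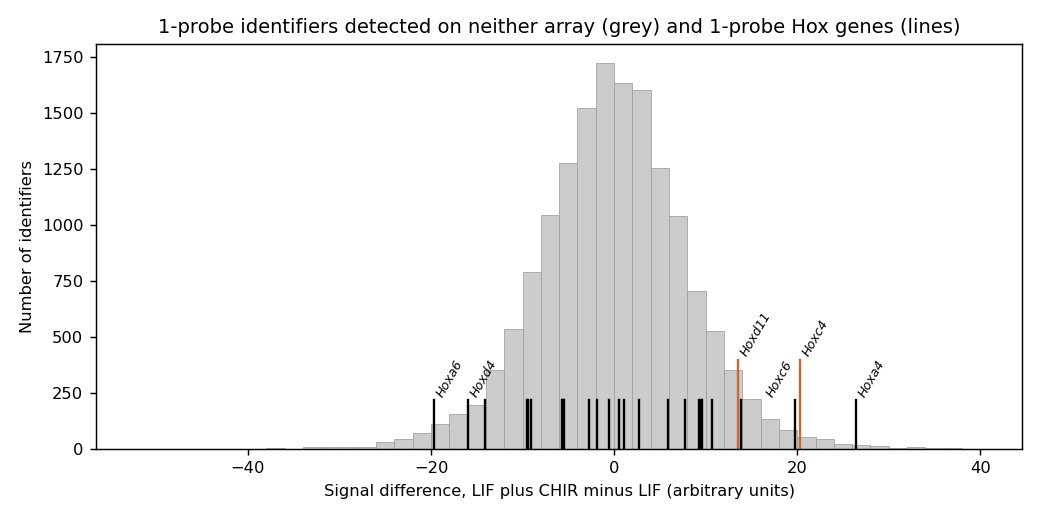
Signal difference, LIF plus CHIR minus LIF (arbitrary units), of the 15569 identifiers with 1 probe detected on neither array (grey bars, number of identifiers) and of the 26 Hox genes with 1 probe (lines; orange for the 2 detected in LIF plus CHIR). Most Hox lines fall within the grey bulk, and Hoxa4, Hoxc4, Hoxc6 and Hoxa6 are among those in its tails.

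Some TALE cofactors were detected on both arrays. Of 7 genes, 3 were detected in LIF and the same 3 in LIF plus CHIR, Meis2, Pbx2 and Pbx4. Over all identifiers 29.3% and 29.8% were detected, and with only 7 genes the count is not far from these shares. Meis2 had signals of 138.6 in LIF and 127.8 with CHIR, both above every negative control bead. The level with CHIR was 0.92 times that in LIF, -0.12 on the log2 scale. Pbx2, a broadly expressed family member, had signals of 315.3 and 321.8, also above every control bead, with a ratio of 1.02. Pbx4, known for its expression in testis, had signals of 143.6 (detection p-value 8.32e-07) and 155.5 (detection p-value 3.03e-05), with a ratio of 1.08. Unlike Meis2 and Pbx2, Pbx4 was treated as measured by several probes. Each of the 3 levels thus differed by less than 10 percent between the arrays, with no replicate to give the spread.

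The other 4 TALE cofactors were not detected, although each passed the looser p-value of under 0.05 on at least 1 array. All 7 Meis and Pbx genes did so, against 38.0% of all identifiers. Meis1, a partner of Hox proteins in blood stem cells, had signals of 51.2 in LIF (detection p-value 0.124) and 35.7 in LIF plus CHIR (detection p-value 0.045). Pbx3 had signals of 26.7 (detection p-value 0.031) and 22.9 (detection p-value 0.077). Meis3 had signals of 9.52 (detection p-value 0.042) and 12.4 (detection p-value 0.038). All 4 are measured by several probes, for which the p-value does not follow the signal, as Meis1 shows with its lower p-value beside its lower signal.

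**Figure D4:**
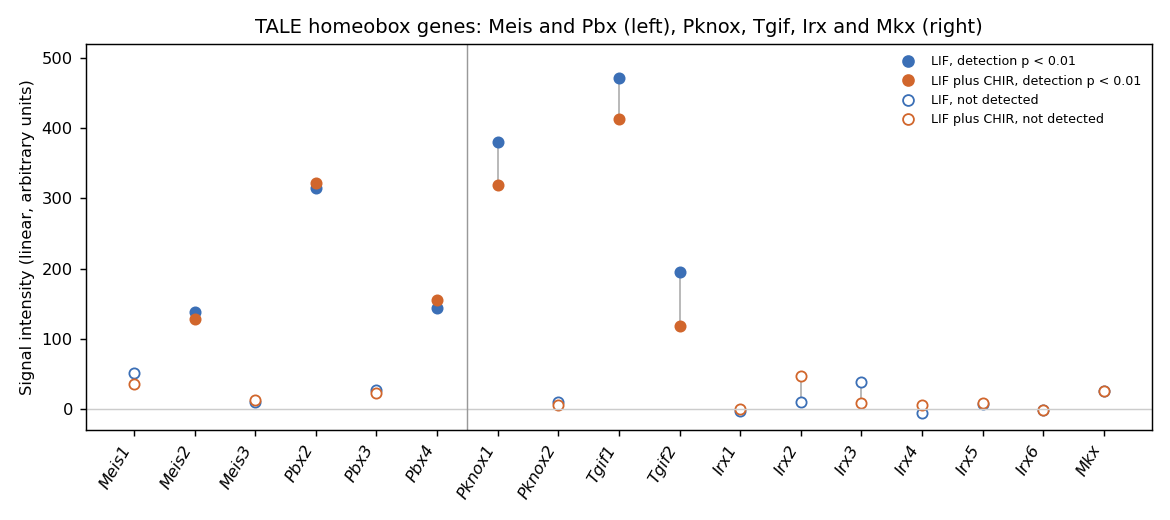
Signal intensity (linear, arbitrary units) of Meis and Pbx genes and, right of the line, of the other TALE genes in LIF (blue) and LIF plus CHIR (orange); filled points are detected. Meis2, Pbx2 and Pbx4 lie nearly level between the arrays, and among the others only Pknox1, Tgif1 and Tgif2 are detected, each lower with CHIR.

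At the limit of 1.5-fold that the study used, 0 of the 46 genes were higher in LIF plus CHIR and 0 were lower, of which 4 had a fold that could be given (Hoxc4, Meis2, Pbx2 and Pbx4). Over all 9615 identifiers detected on at least 1 array, 2.64% were higher and 2.88% were lower. The share past the limit in either direction was 7.23% where the brighter signal was under 100, the range of Hoxc4 and Hoxd11. It was 7.23% as well from 100 to under 1000, the range of Meis2, Pbx2 and Pbx4. With so few genes measured, 0 calls is close to what these shares give. The median log2 fold change of the 3 TALE cofactors was 0.03, and that of all identifiers with a fold was -0.002.

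Of the 11 other TALE genes, Pknox1, Tgif1 and Tgif2 were detected, all on both arrays, against 27.9% of all identifiers. Tgif2, a repressor in TGFβ signaling, had signals of 195.6 in LIF and 118.7 with CHIR, -0.72 on the log2 scale and past the limit of 1.5-fold. Pknox1, which like Meis binds Pbx, had signals of 380.3 and 319.7 (-0.25), and Tgif1 of 472.1 and 413.8 (-0.19). Pknox2, Irx1 to Irx6 and Mkx were not detected. The median of the 3 detected was -0.25.

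Hox signals were near background while several genes upstream of Hox genes were brighter with CHIR. Of 14 such regulators, 3 were detected in LIF and 6 with CHIR, against 29.3% and 29.8% of all identifiers. Of the 5 with a fold, 4 were at least 1.5-fold higher and 0 lower, with a median log2 fold change of 1.21. Over all identifiers detected on at least 1 array, 2.64% were higher and 2.88% lower. Cdx1, a caudal-type activator of Hox genes, had signals of 75.2 in LIF and 963.2 with CHIR, 3.68 on the log2 scale. Cdx2 had signals of 23.6, not detected, and 93.5, at least 0.85 higher on the log2 scale. T (brachyury), a primitive streak factor, had signals of 8.05, not detected, and 394.5, at least 2.93 higher. Wnt3a, a Wnt ligand of the streak and tail bud, had signals of 108.7 and 251.7, 1.21 higher.

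The other regulators were Gbx2 and 9 genes at or near background. Gbx2, a homeobox gene of the hindbrain border that is also expressed in mESCs, had signals of 10911 and 10550. Aldh1a2, which makes retinoic acid, was detected only with CHIR (24.1 and 42.0) and had no fold that could be given. Cdx4 had signals of 10.2 and 23.3 and was not detected, nor were Rarb, Cyp26a1, Egr2, Gdf11, Fgf8 or Tbx6. Cdx2 is also 1 of 5 trophoblast markers, of which Tfap2c was the other detected one (3175 and 3329), with Eomes, Elf5 and Hand1 undetected. The summed signal of the 5 was 3179 in LIF and 3429 with CHIR.

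Some genes beside the clusters were detected where the Hox genes were not, most often beside Hoxa. Of the 3 nearest protein-coding genes on each side of each cluster, 21 of 24 were on the array and 10 were detected on both arrays, against 27.9% of all identifiers, and 11 were not. By cluster, 5 of 6 were detected beside Hoxa, 1 of 4 beside Hoxb, 2 of 6 beside Hoxc and 2 of 5 beside Hoxd. Without Hoxa the count was 5 of 15, near the share over all identifiers. These counts rest on the p-value, which did not follow the signal for identifiers with several probes. Of such identifiers, Cbx3 beside Hoxa (2746 and 2467) and Cbx5 (1035 and 920.1) and Smug1 (343.9 and 408.8) beside Hoxc were bright without being detected. The other undetected neighbours had signals near background. Skap2, on one side of Hoxa, had signals of 2839 in LIF and 2966 with CHIR, and Hibadh, on the other side of Hoxa, of 7459 and 7472. Snx11 beside Hoxb had signals of 4482 and 3798, Atp5g2 beside Hoxc of 5501 and 4645, and Atp5g3 beside Hoxd of 39551 and 37410. The median log2 fold change of the 10 was 0.01.

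Evx1 was the 1 gene of these 10 past the limit of 1.5-fold. It is a homeobox gene next to Hoxa13, known from the posterior primitive streak, and had signals of 116.5 in LIF and 191.4 with CHIR, 0.72 on the log2 scale. Its neighbour Hoxa13 was not detected, with the signals of 44.1 and 34.3 given above. Evx2, in the like place beside Hoxd13, had signals of -13.2 and -7.67 and was not detected. Mtx2, next to the Hoxd cluster, had signals of 68.8 and 88.0, 0.35 on the log2 scale. Inside the clusters, 5 of 31 other annotated genes were on the array, mostly noncoding RNAs such as Hoxa11s (-16.6 and -8.99), and 0 of them were detected. No microRNA of the clusters was among the identifiers.

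**Figure D5:**
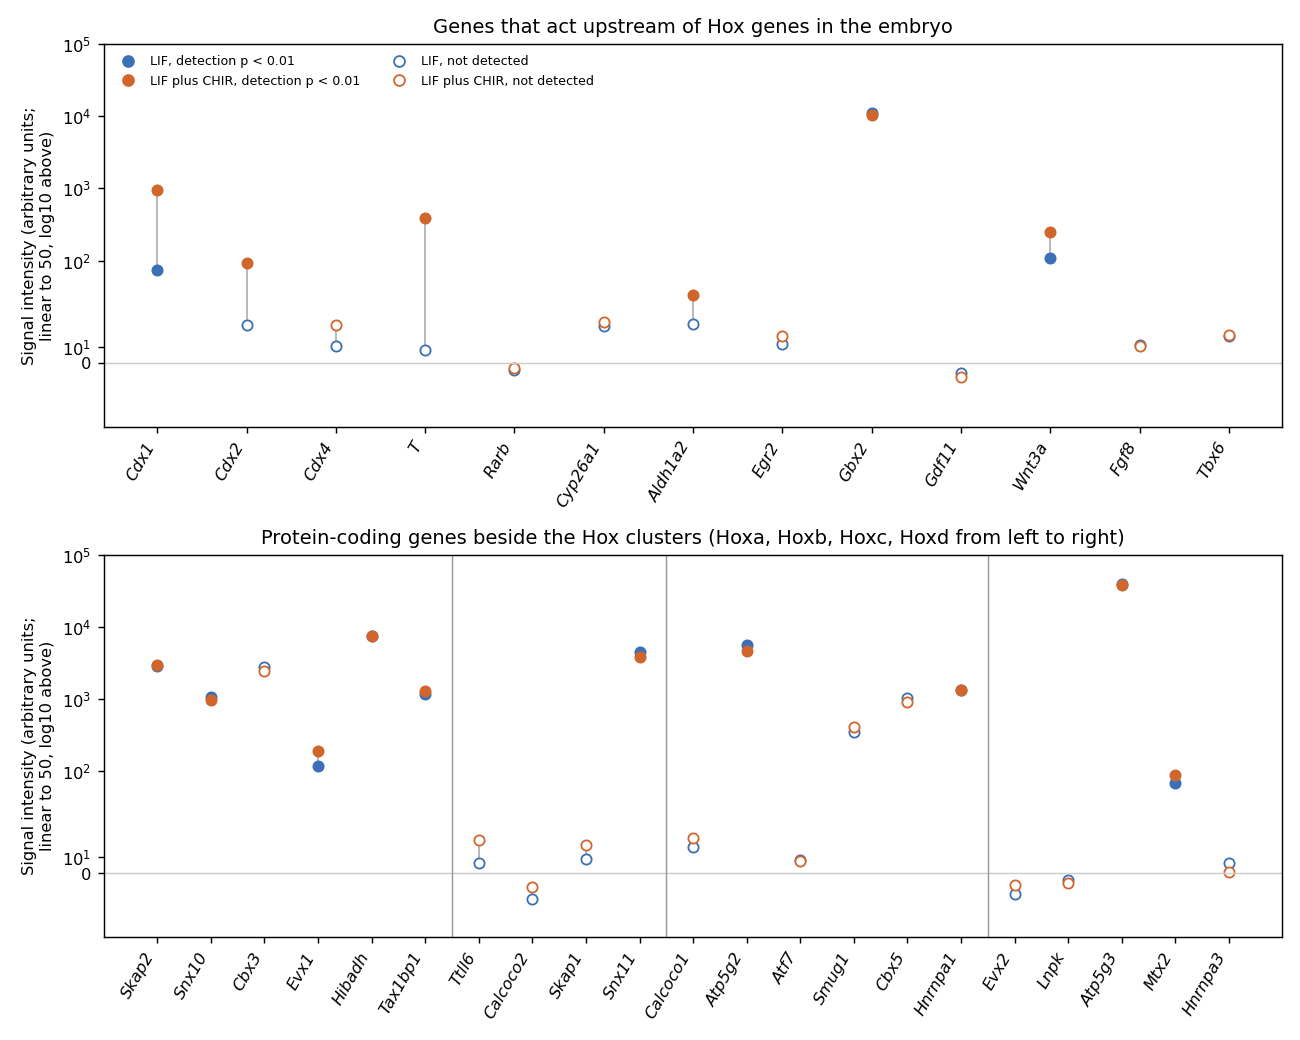
Signal intensity (arbitrary units, linear to 50 and log10 above) in LIF (blue) and LIF plus CHIR (orange) of regulators of Hox genes (top) and of protein-coding genes beside the Hox clusters (bottom); filled points are detected. Cdx1, Cdx2, T and Wnt3a are brighter with CHIR, and 10 of the 21 neighbours are detected on both arrays.

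Of 22 other homeobox genes of the ANTP class, to which Hox genes belong, 4 were detected on both arrays, against 27.9% of all identifiers. Evx1 was the 1 past the limit of 1.5-fold. En2 had signals of 183.2 and 238.2, Dlx3 of 62.7 and 53.4, and Gbx2 is given above. The other 18, among them Pdx1, Gsx1, Dlx5 and Nkx2-5, were undetected on both arrays, as most Hox genes were. The median log2 fold change of the 4 was 0.17.

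RNAs of the proteins known to keep Hox genes silent or active were also measured. Of 20 Polycomb genes, 12 were detected in LIF and 13 with CHIR, against 29.3% and 29.8% of all identifiers. Among them 0 were at least 1.5-fold higher and 0 lower, with a median log2 fold change of 0.01. Suz12, a core subunit of the repressive complex PRC2, had signals of 9201 and 9173, Mtf2 of 5290 and 5422 and Rbbp7 of 4163 and 5305. Phc1, of the complex PRC1, went from 8051 to 5924, -0.44 on the log2 scale. Ezh2, the PRC2 methyltransferase, had signals of 1582 and 1468 and was not called detected, which shows the limit of the p-value for genes with several probes. Eed had signals of 196.6 and 207.5.

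Of 13 Trithorax and histone demethylase genes, 6 were detected in each condition and 8 in either. Over all identifiers the shares were 29.3% in LIF and 29.8% with CHIR. Of the 4 genes that had a fold, 0 were past 1.5-fold, with a median of -0.04. Kmt2a, listed as Mll1, a methyltransferase that keeps Hox genes active, had signals of 2338 and 2400, Dpy30 of 7385 and 6632, Ash2l of 2594 and 2390, and Wdr5 of 1354 and 1601. Of 6 genes for geminin and Hox protein partners, 4 were on the array and only Crebbp was detected (51.3 and 49.8), at -0.04 on the log2 scale. Ep300 (987.8 and 1011) and Hdac3 (1315 and 1254), measured by several probes, were bright without being called detected, as Ezh2 was. Gmnn, which encodes geminin, lay below 0 (-12.0 and -13.0).

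The sequences before the start sites are shown for the members detected on at least 1 array, to show their base composition. Each is the 250 bases upstream of a RefSeq transcript start on the mouse build GRCm38.p6, read 5′ to 3′ on the gene's strand, with CG dinucleotides in capitals. Hoxd11 has 2 starts. Only for Pbx2 and the first Hoxd11 entry is this start the outermost end of the annotated gene, and the others belong to another transcript of the gene. The windows are Hoxc4 at chr15:103034145-103034394 (+), Hoxd11 at chr2:74679308-74679557 (+) and chr2:74682073-74682322 (+), Meis2 at chr2:116064620-116064869 (-), Pbx2 at chr17:34592009-34592258 (+) and Pbx4 at chr8:69832374-69832623 (+).
Hoxc4: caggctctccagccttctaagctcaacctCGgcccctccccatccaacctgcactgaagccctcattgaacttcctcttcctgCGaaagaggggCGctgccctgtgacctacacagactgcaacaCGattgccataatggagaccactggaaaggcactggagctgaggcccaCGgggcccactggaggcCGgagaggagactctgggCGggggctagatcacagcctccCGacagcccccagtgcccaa
Hoxd11 start 1: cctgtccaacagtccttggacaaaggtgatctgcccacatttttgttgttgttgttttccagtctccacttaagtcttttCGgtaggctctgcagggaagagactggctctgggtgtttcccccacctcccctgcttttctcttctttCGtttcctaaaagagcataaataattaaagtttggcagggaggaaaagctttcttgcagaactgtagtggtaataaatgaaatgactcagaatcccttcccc
Hoxd11 start 2: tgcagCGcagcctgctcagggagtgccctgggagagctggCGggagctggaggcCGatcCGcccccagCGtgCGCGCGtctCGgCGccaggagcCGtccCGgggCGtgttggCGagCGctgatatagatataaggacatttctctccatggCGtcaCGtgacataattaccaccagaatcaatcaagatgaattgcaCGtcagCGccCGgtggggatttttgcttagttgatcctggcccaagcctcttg
Meis2: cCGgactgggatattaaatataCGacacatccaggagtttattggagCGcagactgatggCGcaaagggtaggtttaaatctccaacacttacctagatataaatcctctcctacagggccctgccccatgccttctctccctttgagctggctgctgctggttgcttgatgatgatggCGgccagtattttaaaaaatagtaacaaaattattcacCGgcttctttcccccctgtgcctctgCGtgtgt
Pbx2: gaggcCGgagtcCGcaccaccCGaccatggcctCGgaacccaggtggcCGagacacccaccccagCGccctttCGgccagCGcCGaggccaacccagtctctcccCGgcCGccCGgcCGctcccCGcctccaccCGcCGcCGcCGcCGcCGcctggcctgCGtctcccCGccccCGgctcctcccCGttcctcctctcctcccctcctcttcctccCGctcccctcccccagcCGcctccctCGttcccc
Pbx4: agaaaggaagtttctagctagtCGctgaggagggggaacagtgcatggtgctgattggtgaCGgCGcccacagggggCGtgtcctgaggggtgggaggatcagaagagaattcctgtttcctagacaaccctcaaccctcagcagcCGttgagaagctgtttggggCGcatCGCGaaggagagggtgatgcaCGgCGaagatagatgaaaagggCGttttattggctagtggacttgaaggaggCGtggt

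In these windows the number of CG dinucleotides was 8 for Hoxc4, 2 and 20 for the Hoxd11 starts, 7 for Meis2, 27 for Pbx2 and 12 for Pbx4. The table of promoters held 27 of the 46 genes, with 29 starts. Their median GC content was 59.2%, against 52.4% over 32851 promoters. CG dinucleotides reached more than 0.6 of the number that base composition predicts in 15 of the 29, or 51.7%, against 34.0% of all promoters. Among the 24 Hox starts it was 13, or 54.2%, with Hoxa13, which was not detected, holding 35 CG dinucleotides. The 29 starts include the 6 shown above, and detected members were not compared with undetected ones.

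Short motifs of factors that act on or with Hox genes were searched in the same 29 windows on both strands, as a description of their letters. A Tcf/Lef motif (CTTTGAA or CTTTGAT) was found in 2, or 6.90%, against 7.48% of all promoters. A Cdx motif (TTTATG or TTTATA) was found in 8, or 27.6%, against 20.9%. A Pbx-Hox motif (TGATNNAT) was found in 4, or 13.8%, against 7.68%, and a Meis motif (TGACAG) in 2, or 6.90%, against 15.9%. The Cdx motif was in the first Hoxd11 window and the Meis2 window, the Pbx-Hox motif in the second Hoxd11 window, and the windows of Hoxc4, Pbx2 and Pbx4 held none of the 4 motifs.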

How the data were processed

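Biotin-labelled total RNA of mESCs given LIF alone or with CHIR was hybridized to Illumina mouse beadchips, with 1 array per condition. The values the authors deposited are linear signal intensity, 1 value per gene identifier, background-subtracted and with nearly equal distributions between the arrays. The software and the normalization method are not given in the sources used here. With each came a deposited detection p-value against negative control beads (936, inferred from its steps). The longer table, used here, is described as non-normalized and a shorter one of 11702 identifiers as normalized, yet both hold the same values, for 15 of the 46 genes as for the rest. Whether the signals are normalized is thus in doubt. The number of columns of sample values left unused was 0. The labels name B6 mESCs, whereas the study's flow chart names 46C ESCs.

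Identifiers with 2 p-values that are multiples of 1 over 936 (within 0.001) were treated as measured by 1 probe (23344) and the rest by several (7430). A p-value of 0 on both arrays, found for 6582 of the former, Meis2 and Pbx2 among them, cannot tell the number of probes. Fold changes were LIF plus CHIR over LIF for identifiers detected (p under 0.01) on at least 1 array, and an undetected signal was raised to the higher of itself and the lowest detected 1-probe signal of its array. A fold bound under 1 was not given. Of the 46 genes, 39 were matched by Entrez number. Python 3.11.15, pandas 2.3.3, numpy 2.4.6, matplotlib 3.10.9, and limma 3.58.1 in R 4.3.3 were used. The fold calculation was run on simulated arrays that held only 1-probe identifiers, with changes planted only well above background. That run did not cover identifiers with several probes or changes near background, where the Hox signals lie. Promoters came from RefSeq (GRCm38.p6), and the files name no build for the array. The genes beside and inside the Hox clusters were found by RefSeq gene positions. Array identifiers were matched to them by symbol, Entrez number or synonym.

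The genes and all gene lists were chosen with earlier results of these data known. Every Hox, Meis and Pbx gene entered the counts and ranges, and the values of a few genes are not reported here. From the lists, genes detected and past 1.5-fold were named with up to 4 of the brightest others, and Eed, Wdr5, Nanog, Klf4, Ezh2, Thy1 and the other undetected genes were named after their values were seen. Alternatives were another normalization, background correction, detection limit, minimum signal, fold limit, table and gene match. The number of arrays limits the precision.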

Additional observations from a re-analysis of the deposited data

How the results depend on the processing

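The counts of 0 genes at least 1.5-fold higher and 0 lower among the 46 were the same under every normalization, background correction, minimum, detection limit and fold limit run. Only 3 to 5 of the 46 had a fold in these settings, or 12 with a detection p-value under 0.05. Most of the 46 could thus not be called in either direction, and the stable counts say little about them. The counts of detected genes followed the detection rule. With a p-value under 0.05 they were 6 Hox genes in LIF and 5 with CHIR, and 5 and 6 Meis and Pbx genes. With a signal above that of every 1-probe identifier not detected at a p-value under 0.05 (31.9 in LIF, 31.2 in LIF plus CHIR), they were 5 Hox genes in LIF and 5 with CHIR. Matching by Entrez number gave 1 Hox gene in LIF plus CHIR, because Hoxc4 has no number in the table. On the log2 scale Hoxc4 ranged from 0.01 to 0.56 and Hoxd11, where a value could be had, from 0.01 to 0.45. Meis2 ranged from -0.12 to -0.01, Pbx2 from 0.01 to 0.08 and Pbx4 from 0.01 to 0.16. Over all identifiers, 254 higher and 277 lower became 409 and 445 with a p-value under 0.05, 64 and 45 at 2-fold, and 55 and 48 with background correction (normexp) fitted on all identifiers, where the estimated background SD was 588.4 in LIF against 15.7 with 1-probe identifiers. They became 395 and 387 with the lowest detected signal of any identifier as the minimum, and 395 and 392 with plain ratios. With 1 array per condition, leaving out a replicate was not run. No paired analysis was possible because the conditions share only replicate number 1. Signals near background limit every statement on single Hox genes.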
